A study of Homo sapiens with 8 samples.

Results

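The transcripts described here encode the brakes on mTORC1 and the switch that the brakes act on. They are DDIT4, SESN1, SESN2, SESN3, DEPTOR, AKT1S1, TSC1, TSC2 and RHEB, 9 of the 16295 genes listed, and they were taken by gene name from the normalized expression table of MM1.S cells. All 9 passed the filter on low reads. The set was put together with their levels in the 4 groups already known, and so every value and difference of these 9 genes is a description with no p-value.

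MM1.S is an established line of human multiple myeloma, a cancer of plasma cells. RNA was sequenced after 24 h with 0.5 µM MS177, 0.5 µM C24, 0.5 µM MS177N1 or the solvent DMSO, with 2 libraries for each group. The study is about EZH2, the enzyme of the Polycomb group that methylates histone H3. As background, MS177 is a degrader of EZH2, C24 is an EZH2 inhibitor, and MS177N1 is a control compound related to MS177. All groups share the 1 cell line and the 1 time point. Nothing in the labels says that the 2 libraries of a group came from separate cultures, and so the spread between them, and every p-value below, may reflect technical variation only.

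mTORC1 is a protein kinase complex on the lysosome that drives translation and growth when amino acids, energy and growth factors are plentiful. The small GTPase RHEB switches it on, and the TSC complex, of which TSC1 and TSC2 are the scaffold and the GTPase-activating subunit, switches RHEB off. DDIT4, also called REDD1, acts through the TSC complex and is a classic transcript of hypoxia, glucocorticoids and the ATF4 stress response. The sestrins hold back the amino-acid branch through the GATOR complexes, and SESN2 is in addition the leucine sensor. DEPTOR and AKT1S1, which encodes PRAS40, are inhibitory subunits of the complex itself. DEPTOR is known for its high level in a subset of multiple myelomas.

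The promoters of DDIT4 and SESN2 are shown because these were the members with the largest differences between groups. Each is the stretch of 250 bases before the annotated start, from RefSeq on GRCh38.p14, 5′ to 3′ on the strand of the gene. DDIT4 lies at chr10:72273674-72273923 and SESN2 at chr1:28259268-28259517, both on the plus strand. Capitals mark ACGTG, the core bound by HIF, and CCAAT, the NF-Y box, which reads ATTGG where it is on the other strand.
DDIT4: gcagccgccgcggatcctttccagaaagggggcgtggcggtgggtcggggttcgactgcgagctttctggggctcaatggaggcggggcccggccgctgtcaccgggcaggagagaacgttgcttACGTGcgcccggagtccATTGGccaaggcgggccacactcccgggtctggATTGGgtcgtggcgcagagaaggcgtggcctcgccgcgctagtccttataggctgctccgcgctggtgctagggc
SESN2: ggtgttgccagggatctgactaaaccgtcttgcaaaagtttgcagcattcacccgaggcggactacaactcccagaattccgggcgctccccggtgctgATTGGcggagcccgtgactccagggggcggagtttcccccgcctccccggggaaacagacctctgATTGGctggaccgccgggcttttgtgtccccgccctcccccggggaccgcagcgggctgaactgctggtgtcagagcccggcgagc

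The DDIT4 stretch held 1 ACGTG, its first base at -125 from the start, and 2 CCAAT boxes on the minus strand at -108 and -75. The SESN2 stretch held 2 CCAAT boxes on the minus strand at -151 and -86 and no ACGTG. Of the letters searched, both windows thus held 2 CCAAT boxes, but so did that of RHEB, at -104 and -51, with 1 ACGTG at -81. Of 35116 RefSeq windows of the same length, 32.0% held CCAAT and 18.5% held ACGTG on either strand. The ATF4 core TGATGNAA (3.14% of all windows), the cAMP response element TGACGTCA (1.65%) and the FOXO core GTAAACA (2.98%) were in neither window on either strand. Windows were available for 7 of the 9 members. Among them TGATGNAA was found only in that of TSC2, at -110 in 1 of its 2 windows. No 2 of these motifs overlapped in the windows printed, whereas in that TSC2 window the match overlapped 2 matches of ACGTG on opposite strands.

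The libraries held 20000665 to 26619099 reads in listed genes. Levels are normalized reads, that is reads divided by the size factor of the library, and differences are log2 differences of normalized reads + 1 from 1 limma fit of all 4 groups. The MS177 libraries stood apart from the other 6: limma called 57.9% of 14164 tested genes in MS177 against DMSO at a Benjamini-Hochberg adjusted p under 0.05. The 10 plasma-cell markers were all detected, with a summed level of 127298 to 129600 normalized reads with MS177, 206793 to 208150 with C24, 204617 to 206651 with MS177N1 and 203233 to 203290 with DMSO. Of 14 markers of other cells, 10 were listed, and their summed level was 1681 to 1822 with MS177, 635 to 644 with C24, 618 to 628 with MS177N1 and 572 to 693 with DMSO. The higher sum with MS177 came mostly from the macrophage marker CD68, at 1471 to 1585 with MS177 and 282 to 356 in the other 6 libraries. At low levels, COL1A1 was also higher with MS177, at 33.7 to 50.4 against 6.60 to 14.4. So was CD14, at 9.64 to 10.3 against 2.10 to 9.61. In contrast, CD3E and PECAM1 were lower with MS177, and CSF1R, KRT8 and COL1A2 were at 0 in some libraries. The lower sum of plasma-cell markers with MS177 came mostly from JCHAIN, at 34216 to 34601 against 79845 to 91017 in the other 6 libraries. SDC1 had 12278 to 12569 with MS177, against 25857 to 29160. XBP1 went the other way, with 33576 to 34814 with MS177 and 28870 to 31974 in the other 6 libraries, and the ranges of CD38 overlapped. All other plasma-cell markers were lower in both MS177 libraries than in the other 6. The part of these markers in the results below was not tested. These are bulk samples, in which fewer cells of a type and less RNA per cell cannot be told apart.

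DDIT4 was the member with the largest difference between C24 and MS177N1. It had 12185 and 11333 normalized reads with MS177, 3968 and 4181 with C24, 2879 and 2940 with MS177N1, and 2589 and 2528 with DMSO. The order was MS177, C24, MS177N1, DMSO, and no library of a group overlapped those of the next. Such separation of 2 libraries against 2 was common: 75.8% of all tested genes did not overlap in MS177 against DMSO and 78.3% in MS177 against C24. The share was 35.4% in C24 against DMSO, 35.4% in MS177N1 against DMSO and 40.9% in C24 against MS177N1. The mean was 11759 ± 602 with MS177 and 2559 ± 42.6 with DMSO (SD, n = 2 each), 4.59-fold higher with MS177 (log2 difference 2.20, SE 0.05). With C24 the mean was 4074 ± 151, 1.59-fold that of DMSO (log2 difference 0.67, 95% interval 0.56 to 0.78). With MS177N1 it was 2910 ± 43.5, 1.14-fold that of DMSO (0.19, 95% interval 0.08 to 0.30). The level with C24 was thus far below that with MS177, which exceeded it 2.88-fold (log2 difference 1.53, SE 0.05).

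**Figure D1:**
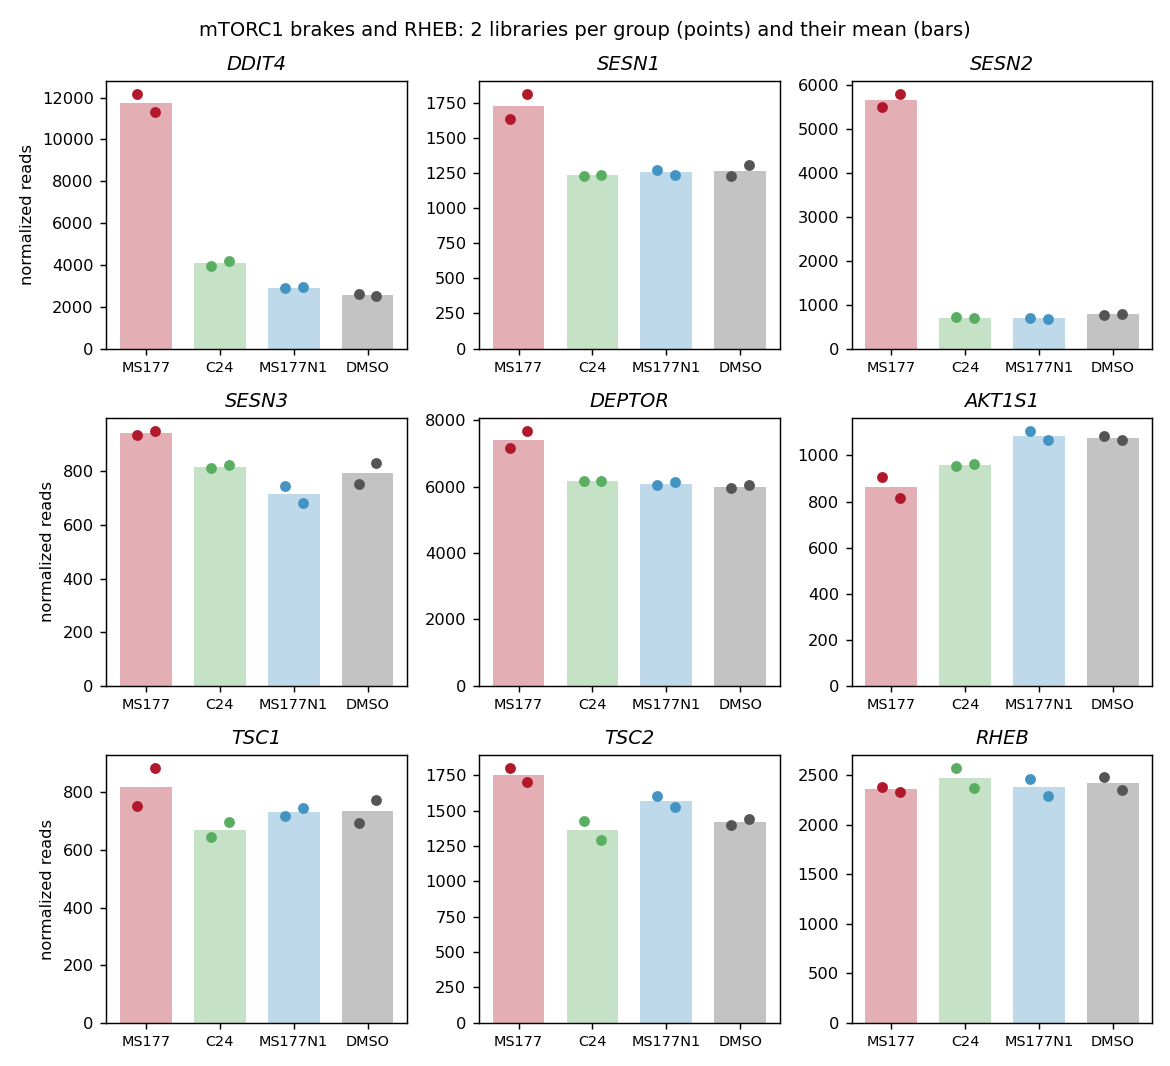
Normalized reads of the 9 genes (y axis, from 0, a scale for each gene) by group (x axis); points are the 2 libraries and bars their mean. DDIT4 steps down over MS177, C24, MS177N1 and DMSO, whereas SESN2 is high with MS177 alone and between 675 and 795 in the other 6 libraries.

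SESN2 had the largest difference of the 9 genes with MS177. Its level was 5505 and 5801 normalized reads with MS177, 714 and 687 with C24, 696 and 675 with MS177N1, and 757 and 795 with DMSO. MS177 was 7.28-fold above DMSO (5653 ± 210 and 776 ± 26.8 normalized reads, log2 difference 2.86, SE 0.07). Both other compounds lay a little under DMSO, C24 by a log2 difference of -0.15 (95% interval -0.29 to -0.00) and MS177N1 by -0.18 (-0.32 to -0.04). C24 and MS177N1 overlapped in SESN2 and differed by 0.03 (95% interval -0.11 to 0.18).

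Levels of these genes can be compared with each other only per length. DDIT4 and SESN2 each have 1 coding transcript in GENCODE release 29, of 1748 and 3453 bases. Per kilobase, the mean level of DDIT4 was 6727 normalized reads with MS177 and 1464 with DMSO, and that of SESN2 was 1637 with MS177 and 225 with DMSO. DDIT4 was thus the higher of the pair per length in either group, while SESN2 differed by the larger fold. The antisense gene DDIT4-AS1 covers 48.5% of the exon bases of DDIT4 in this annotation and was not listed under that name. The use of strand in the counting is not given in the sources used here, so reads of the antisense gene could be part of the DDIT4 level.

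The other sestrins differed far less than SESN2. SESN1, a p53- and FOXO-responsive sestrin, had 1634 and 1813 normalized reads with MS177, 1231 and 1233 with C24, 1273 and 1236 with MS177N1, and 1227 and 1303 with DMSO. Both MS177 libraries lay above the other 6, and the C24 and MS177N1 libraries all fell within the range of the DMSO libraries. The mean was 1.36-fold higher with MS177 than with DMSO (log2 difference 0.44, SE 0.07). SESN3, a FOXO target in other cells, had 934 and 951 normalized reads with MS177, 812 and 824 with C24, 745 and 683 with MS177N1, and 753 and 833 with DMSO. It was 1.19-fold higher with MS177 than with DMSO (0.25, SE 0.08), and the C24 libraries lay within the range of the DMSO libraries. C24 was above MS177N1 in SESN3 by 0.20 (95% interval 0.03 to 0.37), and was not called in this comparison.

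The inhibitory subunits of mTORC1 differed from DMSO in opposite directions with MS177, both by amounts common among all tested genes. The lower and upper quartiles of all tested genes in this comparison were -0.37 and 0.46, and DEPTOR and AKT1S1 lay between them. DEPTOR had 7155 and 7686 normalized reads with MS177, 6173 and 6176 with C24, 6057 and 6137 with MS177N1, and 5965 and 6040 with DMSO. It was 1.24-fold higher with MS177 than with DMSO (log2 difference 0.30, SE 0.05). No groups overlapped, but the differences of C24 and MS177N1 from DMSO were small, 0.04 and 0.02. AKT1S1 had 907 and 816 normalized reads with MS177, 954 and 962 with C24, 1107 and 1067 with MS177N1, and 1083 and 1066 with DMSO. Both MS177 libraries were the lowest of the 8, at 0.80 times the DMSO mean (log2 difference -0.32, SE 0.07), and it was the 1 member called lower. The C24 libraries lay between those of MS177 and those of DMSO and MS177N1, which overlapped. C24 was below MS177N1 by a log2 difference of -0.18 (95% interval -0.34 to -0.02). TBC1D17, on the other strand, shares 7.0% of the exon bases of AKT1S1 and had 1385 and 1273 normalized reads with MS177, against 964 and 997 with DMSO; its part in the AKT1S1 level was not tested.

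TSC1, TSC2 and RHEB differed little between the groups. TSC2 had 1800 and 1704 normalized reads with MS177, 1425 and 1294 with C24, 1601 and 1528 with MS177N1, and 1401 and 1442 with DMSO. It was 1.23-fold higher with MS177 than with DMSO (log2 difference 0.30, SE 0.07), and C24 lay below MS177N1 by -0.20 (95% interval -0.35 to -0.06) but overlapped DMSO. The difference of MS177N1 from DMSO in TSC2 was 0.14 (95% interval -0.01 to 0.28). PKD1 shares 10.97% of the exon bases of TSC2 on the other strand. It had 1308 and 1301 normalized reads with C24, against 1575 and 1592 with MS177N1. With MS177 it had 1522 and 1548, and with DMSO 1525 and 1516. NTHL1, also on the other strand, shares 2.23% of these bases. It had 372 and 344 normalized reads with MS177, against 612 and 631 with DMSO. With C24 it had 606 and 608, and with MS177N1 589 and 644. The part of PKD1 and NTHL1 in the TSC2 level was not tested in any comparison. TSC1 had 752 and 885 normalized reads with MS177, 644 and 699 with C24, 718 and 746 with MS177N1, and 694 and 775 with DMSO. Its MS177 and DMSO libraries overlapped, at a log2 difference of 0.15 (95% interval -0.05 to 0.35). RHEB had 2388 and 2337 normalized reads with MS177, 2574 and 2371 with C24, 2465 and 2291 with MS177N1, and 2489 and 2356 with DMSO. The RHEB libraries of all groups overlapped, and the interval of MS177 minus DMSO ran between -0.17 and 0.09. TBC1D7, a further subunit of the TSC complex, is counted below with the inputs to TSC and RHEB and was named after its values were seen. It had 310 and 297 normalized reads with MS177, against 484 and 437 with DMSO. With C24 it had 441 and 479, and with MS177N1 469 and 450.

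**Figure D2:**
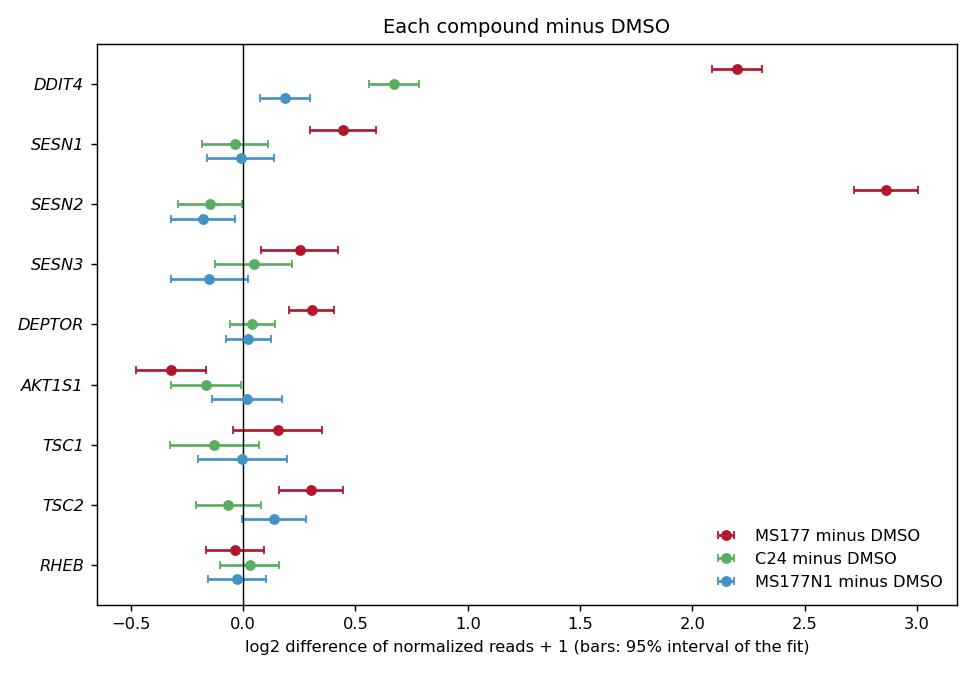
Log2 differences of normalized reads + 1 (x axis) of MS177, C24 and MS177N1 from DMSO for the 9 genes (y axis); points are means of 2 libraries minus 2 and bars the 95% interval of the limma fit. With MS177, DDIT4 and SESN2 lie at 2.20 and 2.86 and the other 7 between -0.32 and 0.44; with C24, DDIT4 lies at 0.67 and the other 8 between -0.17 and 0.05.

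Counts of called members are given beside those of all genes, and nothing is read from them, since the set was chosen on these comparisons. In MS177 against DMSO limma called 7 of 9 members, 6 higher (28.9% of all tested genes were called higher) and 1 lower (29.0%), with TSC1 and RHEB not called. The median log2 difference of the members was 0.30, against 0.00 over all tested genes. All members but DDIT4 and SESN2 lay between the lower and upper quartiles of all tested genes, -0.37 and 0.46. The call of SESN3 was lost without DMSO replicate 1. In C24 against DMSO it called 1 member, DDIT4, where 0.0918% of all tested genes were called. In MS177N1 against DMSO it called 0 of 9, where the background was 0.0353%, as did limma with voom weights, and the 95% interval lay off 0 for 2 of them, DDIT4 and SESN2. In MS177 against MS177N1, 7 members were called, at a background of 57.4%, and in MS177 against C24, 7 were called, at a background of 58.1%. TSC1 was called higher and AKT1S1 was not called in MS177 against C24, at log2 differences of 0.28 (SE 0.09) and -0.16 (SE 0.07). TSC1 was also called against DMSO and MS177N1 without MS177 replicate 1. TSC2 lost its call against MS177N1 without MS177 replicate 1 or either MS177N1 replicate, and in MS177 against C24 SESN3 lost its call without any 1 of the 4 libraries and TSC1 without MS177 replicate 2 or C24 replicate 1. AKT1S1 was called in MS177 against C24 without MS177 replicate 1. These comparisons share their DMSO, MS177N1, C24 or MS177 libraries with one another.

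The design also sets the inhibitor against the control compound at the same dose and time. DDIT4 averaged 4074 ± 151 normalized reads with C24 and 2910 ± 43.5 with MS177N1, a ratio of 1.40 (log2 difference 0.49, 95% interval 0.37 to 0.60), with both C24 libraries above both MS177N1 libraries. This difference lay at percentile 95.6 of all tested genes. The set was chosen with this comparison known, so nothing is read from the call of a member. DDIT4 was 1 of 2 genes that limma called in this comparison, 0.0141% of those tested. The other was AMIGO3, named here after its values were seen, with 22.3 and 25.4 normalized reads with C24 and 0 in both MS177N1 libraries. Without any 1 of the 4 libraries compared, DDIT4 was no longer called, at log2 differences between 0.45 and 0.52. For the other 8 members the log2 difference lay between -0.20 and 0.20. The 95% interval included 0 for SESN1, SESN2, DEPTOR, TSC1 and RHEB, and these 5 intervals together ran between -0.32 and 0.19. The narrowest was that of DEPTOR, -0.08 to 0.12, and the widest that of TSC1, -0.32 to 0.07.

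**Figure D3:**
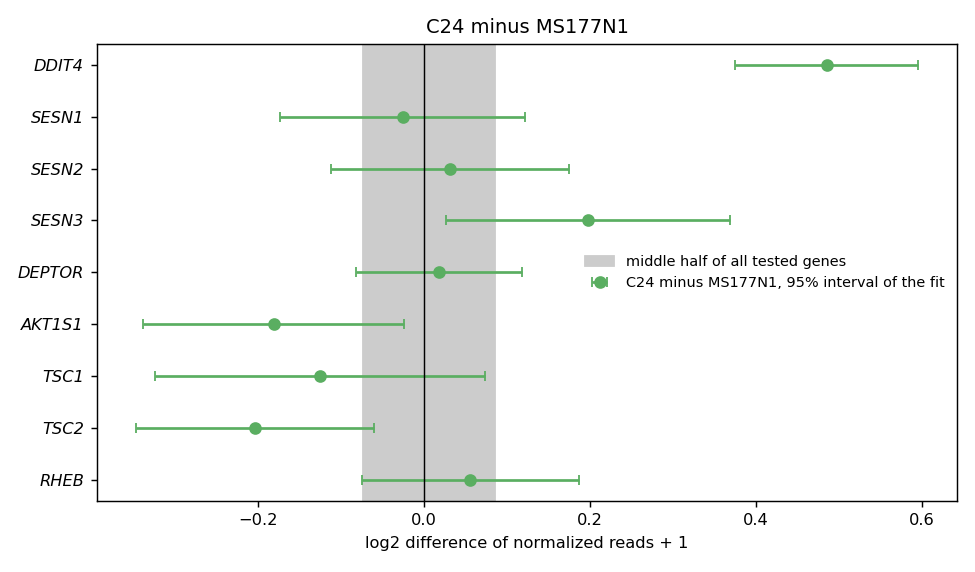
C24 minus MS177N1 log2 differences of normalized reads + 1 (x axis) for the 9 genes (y axis); points are means of 2 libraries minus 2, bars the 95% interval of the limma fit, and the grey band the middle 50 percent of all 14164 tested genes, -0.07 to 0.09. DDIT4 at 0.49 lies apart from the other 8 genes.

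Mitochondrial transcripts took a lower share of the reads with each of the 3 compounds than with DMSO. The 13 mitochondrially encoded protein genes took 1.54% and 1.69% of the reads with MS177, 1.49% and 1.47% with C24 and 1.65% and 1.73% with MS177N1, against 2.10% and 2.07% with DMSO, and their part in the DDIT4 difference was not tested. In C24 against DMSO limma called 3 genes higher, 0.0212% of those tested, and 10 lower, 0.0706%. Beside DDIT4 these were BHLHE40, a hypoxia-responsive transcriptional repressor, and PLA2G4B, named after their values were seen. BHLHE40 had 763 and 784 normalized reads with C24, against 546 and 492 with DMSO (log2 fold change 0.58, SE 0.08, limma adjusted p = 0.00337). It had 1320 and 1297 with MS177 and 634 and 673 with MS177N1, the same order of groups as DDIT4. PLA2G4B had 18.8 and 32.1 with C24 and 0 in both DMSO libraries.

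By the Pearson correlation of log2 levels over the 8 libraries, the genes most like DDIT4 were CFAP69 (r = 0.9955), RAB39B (0.9942) and RGS1 (0.9928). CFAP69 rested on few reads, 11.8 and 13.1 with MS177 and at most 1.11 in the other libraries. RAB39B, a small GTPase, had 304 and 281 normalized reads with MS177, 104 and 106 with C24, 82.9 and 85.5 with MS177N1, and 83.6 and 79.8 with DMSO. RGS1, a regulator of G-protein signalling, had 1830 and 1801 with MS177, 1340 and 1279 with C24, 1188 and 1239 with MS177N1, and 1185 and 1165 with DMSO. In both, the C24 libraries lay above those of MS177N1 and DMSO, as in DDIT4. Both were picked by their correlation with DDIT4 over these same 8 libraries, so this likeness is no separate result. The genes most like SESN2 were the anti-proliferative factor BTG1 (r = 0.9996), the threonyl-tRNA synthetase gene TARS (0.9994) and the endoplasmic reticulum stress gene HERPUD1 (0.9992). BTG1 had 17585 and 17193 normalized reads with MS177, 3982 and 3946 with C24, 3892 and 3852 with MS177N1, and 4093 and 4308 with DMSO. The 8 points fall into the 2 MS177 libraries and the other 6, and the r values carry no test.

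The rest of the pathway was described with 6 lists that hold none of the 9 genes, 93 genes in all, of which 92 were tested. These lists too were chosen with earlier results of these data known. In MS177 against DMSO, limma called 61 of the 92 at an adjusted p under 0.05, 40 higher and 21 lower, with a median log2 fold change of 0.15. Over all tested genes 57.9% were called, 28.9% higher and 29.0% lower. Of the 40 called higher, 9 were on the list of transcription factors. The split by direction was not tested, and nothing is read from it. In C24 against DMSO, MS177N1 against DMSO and C24 against MS177N1 it called 0 of the 92. At an unadjusted p under 0.05 there were 5, 3 and 5 in these 3 comparisons, in that order, and limma with voom weights also called 0 in each. MS177 against C24 gave 61 calls (41 higher, 20 lower) and MS177 against MS177N1 gave 63 (42 higher, 21 lower).

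**Figure D4:**
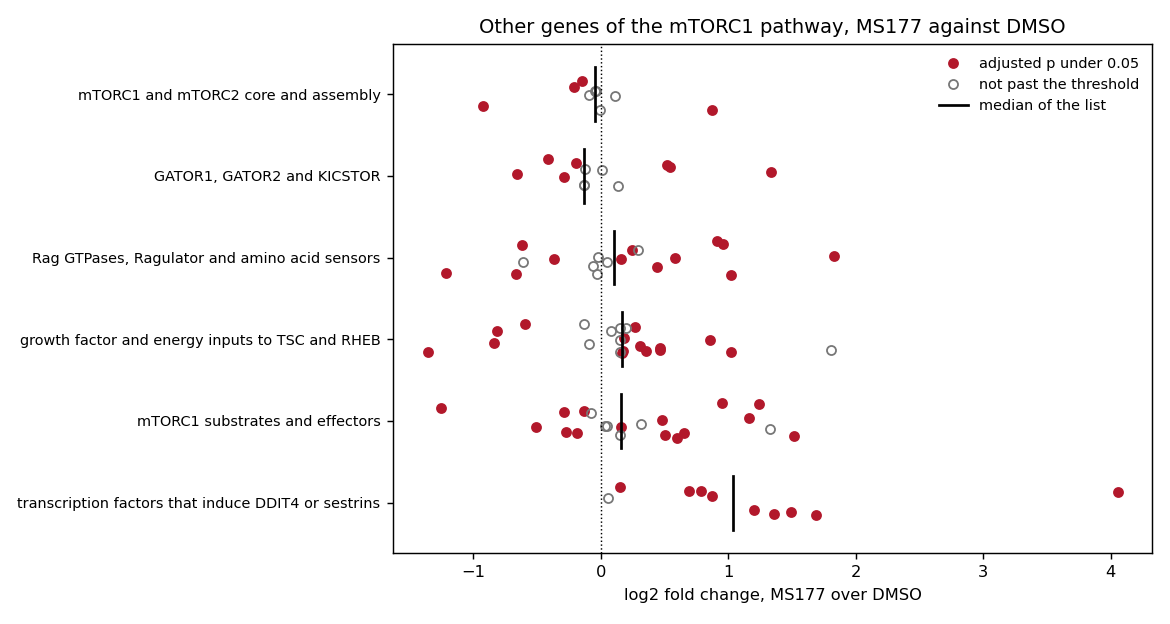
Log2 fold changes, MS177 over DMSO (x axis), of the 92 tested genes in 6 lists of the mTORC1 pathway (y axis; scatter within a list is only for display). Filled points passed the limma adjusted p of 0.05, open points did not, and black lines are list medians; the transcription factors have a median of 1.03 and the other 5 lists between -0.13 and 0.17.

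The transcription factors known to induce DDIT4 or sestrins were the list with the highest median log2 fold change, 1.03. Of these factors, 9 of 10 rose with MS177 and 0 fell, where 28.9% of all tested genes were called higher. The lists were chosen with earlier results of these data known, so neither this rank nor the adjusted p-values are independent of that choice. DDIT3, the stress factor CHOP, had 2950 and 2702 normalized reads with MS177, 217 and 207 with C24, 157 and 186 with MS177N1, and 166 and 171 with DMSO. It rose 16.6-fold with MS177 against DMSO (log2 fold change 4.06, SE 0.11, limma adjusted p = 2.15e-13). ATF4, the effector of the integrated stress response, had 18690 and 16454 normalized reads with MS177, 6517 and 6509 with C24, 6624 and 6635 with MS177N1, and 6691 and 5820 with DMSO. It rose 2.81-fold (1.49, SE 0.07, limma adjusted p = 4.87e-10). CEBPB, a partner of both in stress responses, rose 3.23-fold, with 2276 ± 248 normalized reads with MS177 and 705 ± 91.3 with DMSO (1.69, SE 0.10, limma adjusted p = 1.34e-09). The factor that was not called was FOXO4, named after its value was seen, at 0.05 (limma adjusted p = 0.69).

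The same factors were also compared between the compounds. DDIT3 was higher with MS177 than with MS177N1 by 4.03 (limma adjusted p = 2.34e-13) and than with C24 by 3.73 (limma adjusted p = 6.49e-13). CEBPB was higher with MS177 than with MS177N1 by 1.88 and than with C24 by 1.87 (limma adjusted p = 4.27e-10 and 4.47e-10). ATF4 was higher with MS177 than with C24 by 1.43 (limma adjusted p = 7.39e-10). Between C24 and MS177N1, none of the 3 was called: the log2 difference was 0.31 for DDIT3 (95% interval 0.07 to 0.54, limma adjusted p = 0.997), 0.01 for CEBPB (-0.20 to 0.22, limma adjusted p = 1) and -0.03 for ATF4 (-0.17 to 0.12, limma adjusted p = 0.997). 

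Of 9 tested genes of the mTORC1 and mTORC2 core and its assembly, 1 rose with MS177 against DMSO, 3 fell and 5 were not called, where 57.9% of all tested genes were called. RICTOR, the defining subunit of mTORC2, had 862 and 1091 normalized reads with MS177, against 503 and 559 with DMSO, and rose by 0.87 on the log2 scale (SE 0.11, limma adjusted p = 3.37e-06). TELO2, a co-chaperone that assembles the kinase, fell by 0.93 (SE 0.09, limma adjusted p = 2.74e-07). The mTORC2 subunit gene MAPKAP1 and MLST8, a subunit shared by both complexes, had log2 fold changes of -0.21 (SE 0.05, limma adjusted p = 0.00317) and -0.15 (SE 0.06, limma adjusted p = 0.0266). The call of MAPKAP1 was lost when libraries were scaled by total reads. That of MLST8 was lost there too, in a fit of the MS177 and DMSO libraries alone, and without MS177 replicate 2 or either DMSO replicate. The kinase gene MTOR itself, named outside the rule, had 1628 and 1652 normalized reads with MS177, against 1753 and 1752 with DMSO, and was not called (-0.10, limma adjusted p = 0.20).

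GATOR1 relays amino-acid scarcity to the Rag GTPases, GATOR2, the complex that sestrins bind, opposes it, and KICSTOR tethers GATOR1 to the lysosome. Of these 12 genes, 3 rose, 4 fell and 5 were not called, at a median of -0.13 and a background of 57.9% called. Among those that rose were KPTN (log2 fold change 1.33, SE 0.16, limma adjusted p = 2.31e-06) and ITFG2 (0.52, SE 0.12, limma adjusted p = 0.00145), both of KICSTOR. KPTN had 439 and 373 normalized reads with MS177, against 157 and 162 with DMSO. The named genes that fell were SEH1L of GATOR2 (-0.66, SE 0.06, limma adjusted p = 2.07e-07) and the GATOR1 subunits DEPDC5 (-0.41, SE 0.10, limma adjusted p = 0.00162) and NPRL3 (-0.29, SE 0.07, limma adjusted p = 0.00251).

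Among 18 Rag GTPases, Ragulator subunits and amino acid sensors, 8 rose with MS177, 4 fell and 6 were not called, beside 28.9% higher and 29.0% lower over all tested genes. RRAGC, a Rag GTPase, had 1367 and 1609 normalized reads with MS177, against 747 and 714 with DMSO, and rose 2.03-fold (log2 fold change 1.02, SE 0.09, limma adjusted p = 6.35e-08). FNIP1, the partner of folliculin in activating that GTPase, rose by 0.96 (SE 0.09, limma adjusted p = 3.56e-07). RNF152, a ubiquitin ligase of RRAGA and RHEB, rose by 1.83 (SE 0.41, limma adjusted p = 0.00121) at a low level, 46.8 ± 6.61 normalized reads with MS177 and 12.4 ± 1.18 with DMSO. The Ragulator subunits LAMTOR5 and LAMTOR4 fell by 0.67 (SE 0.09) and 0.62 (SE 0.07) on the log2 scale (limma adjusted p = 6.09e-06 and 9.06e-07). CASTOR2, a relative of the arginine sensor CASTOR1 that the table lists under an older symbol, fell by 1.21 (SE 0.31, limma adjusted p = 0.00318), with 20.9 ± 0.81 normalized reads with MS177 and 50.1 ± 6.96 with DMSO.

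Of 22 growth factor and energy inputs to TSC and RHEB, 10 rose, 4 fell and 8 were not called, again beside 28.9% higher and 29.0% lower over all tested genes. AKT1, a kinase that inactivates TSC2 and AKT1S1 by phosphorylation, had 1107 and 1101 normalized reads with MS177, against 2019 and 1924 with DMSO, and fell by 0.84 on the log2 scale (SE 0.06, limma adjusted p = 9.11e-09). Its paralog AKT2 fell by 0.81 (SE 0.05, limma adjusted p = 3.72e-09). Both AKT genes thus moved the same way at the RNA level. PRKAG2, a regulatory subunit of the energy sensor AMPK, fell by 1.36 (SE 0.11, limma adjusted p = 3.02e-08), and CAB39, which helps activate the kinase upstream of AMPK, rose by 0.47 (SE 0.05, limma adjusted p = 2.13e-06). DDIT4L, the paralog of DDIT4, had 79.3 and 96.3 normalized reads with MS177, 24.8 and 42.0 with C24, 49.3 and 38.2 with MS177N1, and 36.3 and 49.99 with DMSO. It rose with MS177 against DMSO by 1.02 (SE 0.31, limma adjusted p = 0.010), a call lost without MS177 replicate 2 or DMSO replicate 1, and its C24 libraries overlapped those of DMSO.

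Downstream, 9 of 21 mTORC1 substrates and effectors rose with MS177 against DMSO, 6 fell and 6 were not called, where 28.9% of all tested genes were called higher and 29.0% lower. PDCD4, a translation inhibitor that mTORC1 signalling marks for destruction, rose 2.37-fold, with 4189 ± 236 normalized reads with MS177 and 1768 ± 95.6 with DMSO (log2 fold change 1.24, SE 0.07, limma adjusted p = 3.16e-10). TFE3, a lysosomal transcription factor that mTORC1 keeps in the cytoplasm, had 3011 and 2884 normalized reads with MS177, against 1321 and 1314 with DMSO (1.16, SE 0.06, limma adjusted p = 3.10e-10). GRB10, a growth factor adaptor stabilized by mTORC1, had 21.4 and 17.8 normalized reads with MS177, 8.56 and 6.64 with C24, 4.20 and 3.64 with MS177N1, and 6.60 and 5.77 with DMSO. It was called against DMSO (1.52, SE 0.60, limma adjusted p = 0.0406) and against MS177N1 (2.06, SE 0.60, limma adjusted p = 0.00795). The first call was lost without any 1 of the 4 libraries compared, the second without MS177 replicate 1. Those that fell were led by the autophagy kinase gene ULK2, with 84.7 and 103 normalized reads with MS177, against 229 and 220 with DMSO (-1.26, SE 0.15, limma adjusted p = 3.73e-06). LARP1, a repressor of ribosomal protein translation, fell by 0.51 (SE 0.05, limma adjusted p = 2.31e-07), and POLDIP3, an S6 kinase partner, fell by 0.29 (SE 0.06, limma adjusted p = 7.12e-04).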

How the data were processed

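The deposited table gives 16295 genes a log2 value in each of 8 libraries, and per the file headers the authors had normalized these values. The submitters' processing notes name hg19, STAR, Salmon and DESeq2, with no role for each, and the extract protocol in the labels starts from 1 µg of total RNA. The values fit a variance-stabilizing scale with a shared minimum of 5.967655733 for 0 reads. Inverting it gave whole reads, within 0.01, for all 130360 values, and these were divided by the recovered size factors.

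The 9 genes and all lists were chosen with earlier results of these data known. A gene was tested if 2 or more libraries held 10 reads or more, scaled to the median library size, and its reads summed to 15 or more (14164 tested, 2131 not). Tested genes were fitted with limma 3.58.1 (trend, robust; statmod 1.5.0; R 4.3.3) on log2(normalized reads + 1), with the 4 groups in 1 fit, 6 pairwise comparisons and Benjamini-Hochberg adjustment over all tested genes. Folds were computed on the same scale, with the pseudocount of 1. The fit was tested on simulated data.

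From the lists, the text names up to 3 called genes with the largest change in each direction in MS177 against DMSO, and up to 3 in each other comparison. Some genes that this rule picks are not reported here. For DDIT4 and SESN2 it names the 3 genes of highest correlation. Alternatives covered pseudocount, filter, scaling, the deposited log2 values, voom weights, the groups fitted, a replicate block and each library left out. Exon overlaps and transcript lengths came from GENCODE release 29. Read totals set the precision of low genes, and intervals cover the spread between 2 libraries only.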

Additional observations from a re-analysis of the deposited data

How the results depend on the processing

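No called difference of the 9 genes or of the named pathway genes changed direction under the alternatives run. The number of all genes called in MS177N1 against DMSO, 5, was 9 with a pseudocount of 5, 3 with total-read scaling, 8 on the deposited log2 values, 8 with voom weights, 17 with only these groups in the fit, and 0 to 4 with 1 library left out. In C24 against DMSO the 13 called genes ranged between 10 and 13 with 1 library left out. In C24 against MS177N1 the 2 called genes became 1 with a pseudocount of 5, 28 with only these groups in the fit, and 0 to 2 with 1 library left out. DDIT4 was then not called (0 members) without any 1 of the 4 libraries. In C24 against DMSO its call held under every alternative, but the set was chosen with these comparisons known.

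With the replicate number as a block, 11 genes were called in MS177N1 against DMSO, 20 in C24 against DMSO, 2 in C24 against MS177N1, 8299 in MS177 against DMSO and 61 pathway genes in MS177 against DMSO. Deviations of same-numbered libraries correlated between -0.06 and 0.06, so no large shift shared by replicate number was seen. Whether same-numbered libraries were prepared together cannot be told from these correlations. GRB10 in MS177 against DMSO was the named gene that lost its call with the block.

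In MS177 against DMSO, SESN3 was not called without DMSO replicate 1, and TSC1 was called with total-read scaling or without MS177 replicate 1. In MS177 against C24, SESN3 was not called without any 1 of the 4 libraries, TSC1 was not called without MS177 replicate 2 or C24 replicate 1, and AKT1S1 was called without MS177 replicate 1. In MS177 against MS177N1, TSC2 was not called without the filter, with TMM scaling, with only these groups in the fit, or without MS177 replicate 1 or either MS177N1 replicate, and TSC1 was called with total-read scaling or without MS177 replicate 1. In MS177 against DMSO, RHEB, which was not called, changed sign with total-read scaling (0.05), which also put the median of all genes at 0.09. Other named pathway genes kept their calls apart from those given in the text. On the deposited log2 values, which compress low levels, log2 fold changes of MS177 over DMSO were smaller: 0.57 for RNF152, 0.34 for GRB10 (0.44 against MS177N1), -0.43 for CASTOR2, 0.46 for DDIT4L, -0.76 for ULK2 and 3.40 for DDIT3 (3.38 against MS177N1). With a pseudocount of 5, GRB10 against MS177N1 was 1.46. With 2 libraries per group, small differences in weakly expressed genes such as GRB10 and CASTOR2 are limited by depth.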
